A study of Homo sapiens with 6 samples.

Results

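Matrix metalloproteinases (MMPs) and tissue inhibitors of metalloproteinases (TIMPs) were followed through RNA-Seq counts of MRC5 human lung fibroblasts. The 10 genes examined, *MMP1*, *MMP2*, *MMP3*, *MMP11*, *MMP14*, *MMP16*, *TIMP1*, *TIMP2*, *TIMP3* and *TIMP4*, were found by their GENCODE symbols among the 58676 gene identifiers of the count table. With the minimum of 10 counts summed over the 6 libraries, 9 of the 10 were measured, and *MMP11* was listed at 0 in every library. MRC5 cells, a fibroblast line from human fetal lung, had been kept for 24 h in conditioned media (CM) from a human alveolar epithelial type II (ATII) cell line. This line carries a construct through which RAS can be switched on with 4-hydroxytamoxifen (4-OHT). The 3 libraries of the control group came from fibroblasts in CM of control ATII cells (control ATII CM), and the other 3 from fibroblasts in CM of 4-OHT-treated ATII cells (4-OHT ATII CM). The comparison asks how fibroblasts respond to signals released by RAS-activated epithelium. Both groups share the fibroblast line and the source of the CM, and since no CM of 4-OHT-treated cells without the construct was analysed, an effect of 4-OHT left in the medium and an effect of RAS activation cannot be told apart.

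MMPs are zinc-dependent endopeptidases, most of them secreted as inactive proenzymes, which together cleave nearly all proteins of the extracellular matrix (ECM). *MMP1*, *MMP2*, *MMP3* and *MMP11* encode secreted enzymes, whereas *MMP14* and *MMP16* encode enzymes held in the cell membrane. TIMPs bind the active site of MMPs and block it, and TIMP2 has a further role, in which it links pro-MMP2 to MMP14 at the cell surface so that a neighboring MMP14 molecule can cut off the propeptide. In pulmonary fibrosis, fibroblasts are a source of both the collagens and the enzymes and inhibitors that set how fast collagen is removed.

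Library totals ranged from 17691849 to 26389449 counts, with the fewest in control replicate 2. The first principal component (43.4% of the variance) separated the groups, and the second (23.3%) set control replicate 2 apart from the others. All 12 fibroblast markers were measured, at a summed 41141 to 44659 CPM (counts relative to library size) in the controls and 43015 to 44758 CPM in 4-OHT ATII CM, with *COL1A1* and *COL1A2*, the chains of type I collagen, the most abundant. The 15 epithelial markers summed to 10.0 to 11.8 CPM in the controls and 8.46 to 9.73 CPM in 4-OHT ATII CM, mostly from *KRT19* and *KRT7*, and 5 of them, *NKX2-1*, *SFTPA1*, *KRT5*, *KRT14* and *ESRP1*, had no count in any library. The 10 endothelial and leukocyte markers summed to 0.937 to 1.57 CPM in the controls and 1.37 to 2.43 CPM in 4-OHT ATII CM, with *CD14* and *VWF* the most abundant and *PECAM1*, *CDH5*, *CD3E* and *MS4A1* without a count. In edgeR's quasi-likelihood test, which called 5.72% of all genes, 4 fibroblast markers were higher and 1 was lower, and none of the 7 tested markers of other cell types was called, with *CD14* closest (log2 fold change 0.97, adjusted p = 0.0597, called in 4 of 15 alternatives). In bulk RNA, a change in the share of cells that express a gene and a change in its RNA per cell cannot be told apart.

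Of the 9 measured genes, *MMP2* was higher in 4-OHT ATII CM and no gene was lower by edgeR's quasi-likelihood test at a Benjamini-Hochberg adjusted p under 0.05. Over all 19072 genes tested, 5.72% were called in either direction, 2.95% higher and 2.76% lower. At an unadjusted p under 0.05, 4 of the 9 passed (*MMP1*, *MMP2*, *MMP14* and *TIMP2*), against 17.3% of all genes. The groups did not overlap for 4 genes, *MMP2* and *MMP14* with every 4-OHT ATII CM library higher and *TIMP2* and *MMP16* with every one lower, a pattern seen in 22.1% of all genes. The median log2 fold change of the 9 genes was 0.02, and that of all genes tested was -0.0020. DESeq2 and limma-voom, which called 5.0% and 5.94% of all genes, each added *TIMP2* as lower, so that 2 of the 9 were called. The labels and methods do not say that the replicates were separate cultures, so p values measure the spread between these libraries, which may be technical.

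**Figure D1:**
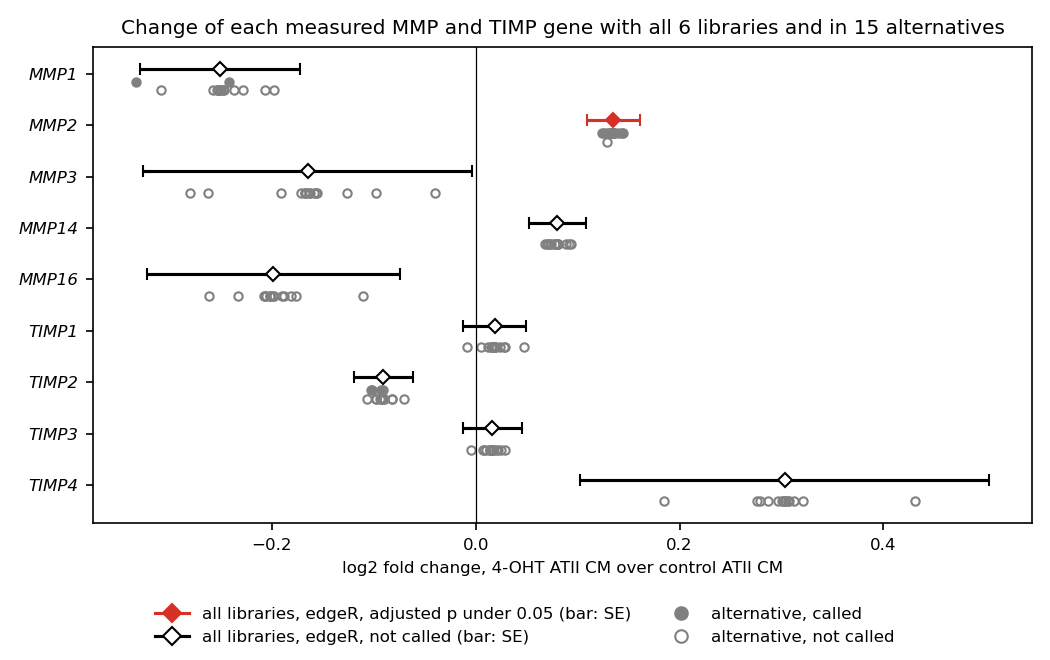
Log2 fold change of the 9 measured genes in 4-OHT ATII CM over control ATII CM (x axis), with all 6 libraries (diamonds, bars give the standard error) and in 15 alternative analyses (circles, filled where the adjusted p was under 0.05). *MMP2* is the only gene called with all libraries, and its values over the alternatives span 0.12 to 0.14, whereas those of *TIMP1* and *TIMP3* lie on both sides of 0.

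Levels of different genes were compared per length, as CPM per kilobase of merged exons (RPKM). *TIMP1* was the most abundant of the genes, at 554 ± 8.31 RPKM in control ATII CM and 562 ± 19.4 RPKM in 4-OHT ATII CM (SD, n = 3 each). *MMP2* followed with 286 ± 4.99 and 315 ± 1.32 RPKM, and *MMP14* with 218 ± 5.0 and 231 ± 2.43 RPKM. *TIMP3* (184 ± 5.15 and 186 ± 1.79 RPKM) and *TIMP2* (185 ± 5.78 and 174 ± 0.972 RPKM) could not be ordered in the controls, where *TIMP3* was above *TIMP2* in 1 of 3 libraries, while it was above it in 3 of 3 libraries of 4-OHT ATII CM. Far below stood *MMP1*, with 12 ± 1.11 and 10.1 ± 0.809 RPKM. *MMP3* had 1.77 ± 0.262 and 1.57 ± 0.201 RPKM, and *TIMP4* 0.992 ± 0.0277 and 1.23 ± 0.222 RPKM. *MMP3* was above *TIMP4* in every library except 4-OHT ATII CM replicate 1, where they had 1.43 and 1.44 RPKM. *MMP16*, at 0.439 ± 0.0487 and 0.381 ± 0.00904 RPKM, was lowest. The length is that of all annotated exons of a gene, so a gene expressed as a short isoform has its level understated.

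**Figure D2:**
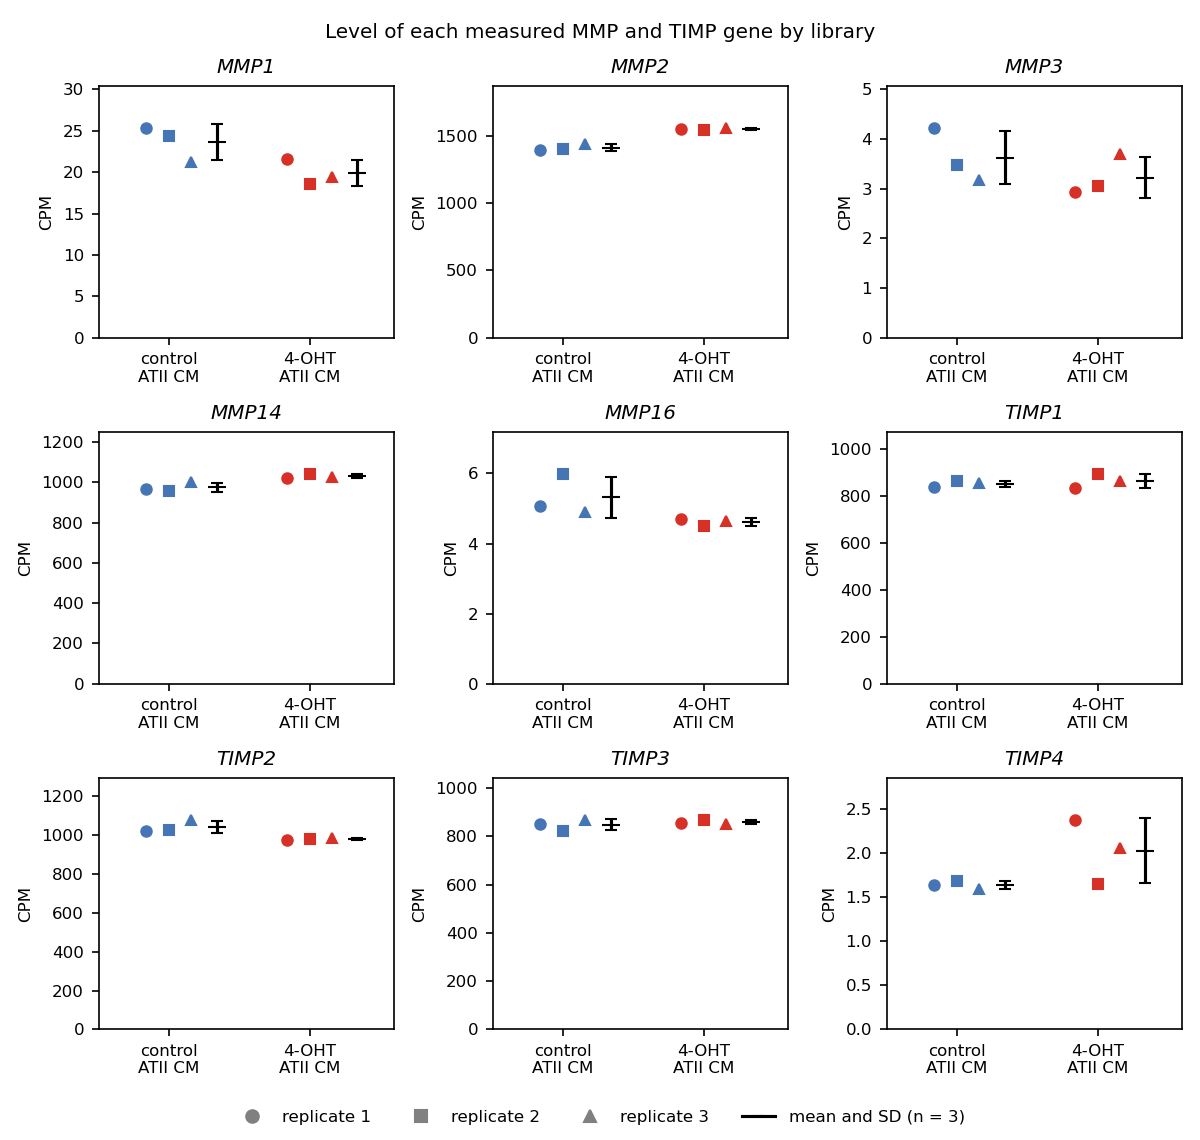
Level of each of the 9 measured genes in CPM, in 1 panel per gene with an axis from 0, for control ATII CM (blue) and 4-OHT ATII CM (red). Symbols mark the replicates and black bars the mean and SD (n = 3). *MMP2* and *MMP14* have every 4-OHT ATII CM library above the controls, *TIMP2* and *MMP16* have every one below, and the other 5 panels overlap.

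*MMP2*, on the plus strand of chromosome 16 (GRCh38, chr16:55389700-55506691), encodes gelatinase A, which cleaves denatured collagen and type IV collagen of basement membranes. It was measured at 1394, 1403 and 1441 CPM in the control libraries and at 1550, 1546 and 1558 CPM in those of 4-OHT ATII CM. Every library of 4-OHT ATII CM was above every control, and the gap between the groups was wider than the spread within either. *MMP2* was 9.83% higher in 4-OHT ATII CM, with a log2 fold change of 0.14 (SE 0.0256, adjusted p = 0.00454 in edgeR, n = 3 per group). The edgeR call was kept in 14 of 15 alternatives, with adjusted p values over the alternatives (edgeR, DESeq2 and limma-voom) from 0.000142 to 0.0501, and was lost without 4-OHT ATII CM replicate 3 (log2 fold change 0.13, adjusted p = 0.0501). Among 9202 genes with a mean of at least 10 CPM, the closest to *MMP2* in centered log2 CPM over the 6 libraries were *NIPAL2*, *PDCD4* and *ALKBH5*. Their root mean square differences from *MMP2* were 0.0110, 0.0112 and 0.0118 on the log2 scale, and none of these 3 was called (adjusted p = 0.324, 0.0507 and 0.0894 in edgeR). A gene without a symbol shares 174 exon bases with *MMP2* on the same strand and had at most 2 counts per library.

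*MMP14* (plus strand, chr14:22836557-22849027) encodes MT1-MMP, a collagenase of the cell membrane and the main activator of pro-MMP2. Its values were 966, 958 and 999.8 CPM in control ATII CM and 1021, 1042 and 1028 CPM in 4-OHT ATII CM. The 4-OHT ATII CM libraries were all above the controls, by 5.72% in the fit (log2 fold change 0.08, SE 0.0279), which did not pass the adjusted threshold (adjusted p = 0.123 in edgeR). None of the 15 alternatives called it, with adjusted p values from 0.0530 to 0.335. *MMP16* (minus strand, chr8:88032009-88328025) encodes MT3-MMP, another membrane enzyme that can activate pro-MMP2. It was measured at 5.06, 5.99 and 4.90 CPM in the controls and 4.70, 4.49 and 4.64 CPM in 4-OHT ATII CM. The groups did not overlap, but the log2 fold change of -0.20 had an SE of 0.124 and an adjusted p of 0.465 in edgeR, and it was -0.11 without control replicate 2, the highest library. A gene known only by its identifier shares 118 exon bases with *MMP16* on the opposite strand and had at most 1 count per library.

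*MMP1* and *MMP3* lie in the MMP cluster of chromosome 11, 37.6 kb apart. They encode interstitial collagenase, which makes the first cut in fibrillar collagen, and stromelysin-1, which cleaves proteoglycans and activates other proMMPs. *MMP1* (chr11:102789920-102798160) had 25.3, 24.4 and 21.2 CPM in control ATII CM and 21.7, 18.6 and 19.4 CPM in 4-OHT ATII CM. The lowest control lay just under the highest 4-OHT ATII CM library, so that the ranges met. The fitted log2 fold change was -0.25 (SE 0.0784, adjusted p = 0.0798 in edgeR), and *MMP1* was called lower in 2 of 15 alternatives, with at least 1 count as the filter (adjusted p = 0.0133) and without control replicate 3 (log2 fold change -0.33, adjusted p = 0.0302), over a range of 0.0133 to 0.284. *MMP3* (chr11:102835801-102843803) had 4.22, 3.47 and 3.18 CPM in the controls and 2.92, 3.05 and 3.69 CPM in 4-OHT ATII CM. These overlapped, and the log2 fold change of -0.16 was about the size of its SE of 0.161 (adjusted p = 0.679 in edgeR). With 1 library left out it ranged from -0.28 to -0.04, at -0.04 without control replicate 1, -0.10 without 4-OHT ATII CM replicate 1, -0.26 without control replicate 3 and -0.28 without 4-OHT ATII CM replicate 3. The cluster, 435 kb long, holds 9 MMP genes, all on the minus strand, and only *MMP1*, *MMP3* and *MMP10* reached 10 counts. The other 6 had 0 to 7 counts summed over the libraries, against 2904 for *MMP1*, 461 for *MMP3* and 73 for *MMP10*. Exons of *MMP1* and *MMP3* overlap those of *WTAPP1* on the opposite strand by 150 and 32 bases, and that gene had at most 2 counts per library.

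*MMP11* encodes stromelysin-3, known from stromal fibroblasts of tumors. It is annotated at chr22:23768226-23784316 on the plus strand and was listed at 0 in all 6 libraries. The zero was shared by its surroundings: none of the 10 genes from *CHCHD10* to *MIF* (chr22:23765834-23895227, 129 kb, 6 of them protein-coding) had more than 2 counts over all libraries. Several of these genes are used by nearly every cell, such as *SMARCB1*, a subunit of the SWI/SNF chromatin remodeler, with 2 counts, and *MIF*, a cytokine, with 0. On the side of *CHCHD10*, the adjoining *C22orf15* had 116 counts and *ZNF70* 1284. Beyond *MIF* the low counts went on, with 184 for *GSTT2B*, 7 for *GSTT2*, 1 for *DDTL* and 0 for *DDT* and *GSTT4*, and *CABIN1*, further on, had 12185. Exons of *CHCHD10*, itself at 0, overlap 218 bases of *MMP11* on the opposite strand. Transcripts of *MMP11*, *CHCHD10*, *SMARCB1*, *DERL3*, *SLC2A11* and *MIF* also align to an alternate contig of GRCh38. They do so over at least 90% of their length with at least 98% identity. Those of *C22orf15* and *CABIN1* reach at most 84.7% and 21.7% of their length on that contig, at 100% and 99.69% identity. The highest coverage for *ZNF70*, 74.1%, was at 79.81% identity on a contig of another chromosome. The genes between *MIF* and *CABIN1* were not aligned. How the counting treated reads that match both the chromosome and the alternate contig is not given in the sources used here, and its part in the zeros was not tested. The level of *MMP11* in MRC5 cells was therefore not measured, and none of the other 9 genes had a copy of this kind.

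**Figure D3:**
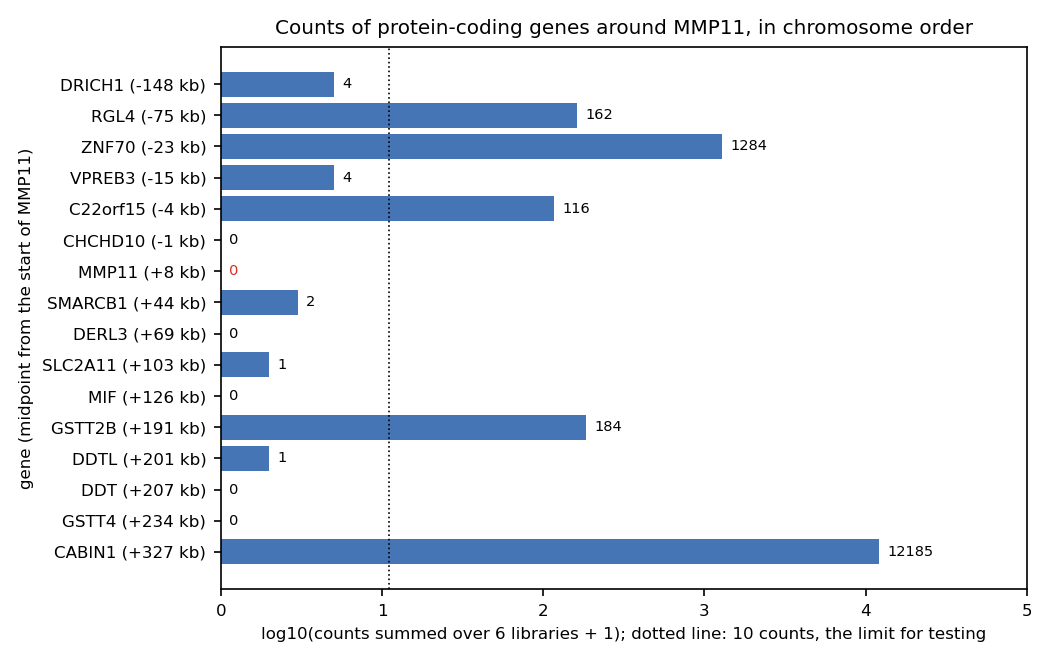
Counts summed over the 6 libraries, as log10(count + 1), for the protein-coding genes around *MMP11*, in the order of the chromosome and with the distance of each midpoint from the start of *MMP11* in kb. The genes from *CHCHD10* to *MIF* have 0 to 2 counts. *ZNF70* on one side has 1284, and on the other side the named genes between *MIF* and *CABIN1* reach at most 184, in *GSTT2B*, before *CABIN1* with 12185.

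*TIMP2* (minus strand, chr17:78852977-78925387), the inhibitor that also takes part in pro-MMP2 activation, had 1022, 1024 and 1079 CPM in control ATII CM and 973, 977 and 984 CPM in 4-OHT ATII CM. Each 4-OHT ATII CM library was below each control, and those libraries differed among themselves less than the controls did. The log2 fold change of -0.09 (SE 0.0291) did not pass the adjusted threshold in edgeR (adjusted p = 0.0886). *TIMP2* was called lower in 4 of 15 alternatives, which were DESeq2 (adjusted p = 0.0448), limma-voom (0.0367), edgeR with the length trend removed (0.0378) and edgeR without control replicate 2 (log2 fold change -0.10, adjusted p = 0.0165). Over all alternatives the adjusted p ranged from 0.0165 to 0.297, and the log2 fold change from -0.11 to -0.07. Exons of *CEP295NL* on the same strand overlap 198 bases of *TIMP2* and had at most 5 counts per library, and a gene without a symbol on the opposite strand overlaps 367 bases and had none.

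The other 3 inhibitors were not called in any of the 15 alternatives. *TIMP1* (plus strand, chrX:47582313-47586789), a soluble inhibitor of most secreted MMPs, had 840, 866 and 856 CPM in the controls and 836, 896 and 864 CPM in 4-OHT ATII CM. The 4-OHT ATII CM libraries held both the lowest and the highest value, and the log2 fold change was 0.02 (SE 0.0308, adjusted p = 0.827 in edgeR). *TIMP3* (plus strand, chr22:32801701-32863043), which is bound in the ECM and also inhibits ADAM proteases, had 852, 822 and 869 CPM against 857, 866 and 849.6 CPM. Its 4-OHT ATII CM libraries all lay within the range of the controls, with a log2 fold change of 0.02 (SE 0.0292, adjusted p = 0.847 in edgeR). The sign of both values depended on 1 library, since *TIMP1* had -0.0087 without 4-OHT ATII CM replicate 2 and *TIMP3* -0.0048 without control replicate 2. *TIMP4* (minus strand, chr3:12153051-12159351), a TIMP of heart and vessels, had only 30 to 54 counts per library, or 1.64, 1.68 and 1.59 CPM in the controls and 2.38, 1.64 and 2.05 CPM in 4-OHT ATII CM. The highest level of the group of 4-OHT ATII CM stood beside one inside the control range, and the log2 fold change of 0.30 had an SE of 0.201 (adjusted p = 0.496 in edgeR). It was 0.19 without 4-OHT ATII CM replicate 1 and 0.43 without replicate 2 of that group, the ends of its range with 1 library left out. *SYN2*, on the opposite strand, shares 170 exon bases (10.3%) with *TIMP4* and had 2 to 6 counts per library.

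Promoter sequence from RefSeq (GRCh38.p14) was found for *MMP14*, *TIMP1*, *TIMP3*, *TIMP4* and *MMP11* among the 10 genes. The 160 bases before the RefSeq start are shown for the abundant genes among them, to set a membrane protease beside 2 inhibitors. Capitals mark the GC box bound by Sp1 (GGGCGG), the CCAAT box (CCAAT) and TGAGTAA, a variant of the AP-1 site, on either strand, so that the reverse complement of a motif is marked as well.
MMP14, plus strand, chr14:22836425-22836584: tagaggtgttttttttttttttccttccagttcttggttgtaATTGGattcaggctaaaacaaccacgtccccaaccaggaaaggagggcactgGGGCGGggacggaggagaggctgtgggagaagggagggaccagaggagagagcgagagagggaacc
TIMP1, plus strand, chrX:47582276-47582435: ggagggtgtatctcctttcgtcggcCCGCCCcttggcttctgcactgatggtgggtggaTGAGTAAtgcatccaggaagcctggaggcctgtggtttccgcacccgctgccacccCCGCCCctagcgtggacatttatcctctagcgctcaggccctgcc
TIMP3, plus strand, chr22:32801545-32801704: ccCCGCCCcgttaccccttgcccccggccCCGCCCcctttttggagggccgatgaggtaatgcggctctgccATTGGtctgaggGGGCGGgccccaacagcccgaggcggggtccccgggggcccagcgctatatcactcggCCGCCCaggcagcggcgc
The search covered 250 bases before the start on both strands, in 35116 RefSeq promoters of the same length. The GC box was found in all 5 genes and in 42.6% of all promoters, with 5 matches for *TIMP3*, 3 for *MMP11*, 2 for *TIMP1* and 1 each for *MMP14* and *TIMP4*. The CCAAT box was found for *MMP14*, *TIMP3* and *TIMP4* and in 32% of all promoters. TGAGTAA was found for *TIMP1* alone among the 5, from base -101 to base -95 counted back from the start, and in 2.21% of all promoters. The AP-1 consensus TGANTCA (6.57% of all promoters), TATAAA (10.7%) and the ETS core CCGGAA (14.5%) had no match in these 5 windows. No motif overlapped another in these windows, and a match describes the letters and not the binding of a factor.

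Ratios of protease to inhibitor were then taken within each library, first for the proteins of the MMP2 activation complex. The RPKM ratio of *MMP2* to *TIMP2* was 1.56, 1.56 and 1.52 in the control libraries and 1.82, 1.81 and 1.81 in 4-OHT ATII CM, a difference of 16.9% without overlap. The ratio of *MMP14* to *TIMP2* was 1.19, 1.18 and 1.17 against 1.32, 1.35 and 1.32, higher by 12.6% and again without overlap. *MMP1* to *TIMP1* gave 0.0236, 0.0221 and 0.0193 against 0.0202, 0.0162 and 0.0176, where the groups overlapped. The sum of the 5 measured MMPs over the sum of the 4 TIMPs was 0.563, 0.556 and 0.564 in the controls and 0.615, 0.591 and 0.606 in 4-OHT ATII CM, 7.62% higher. The summed MMP level was 514 to 529 RPKM against 556 to 558 RPKM and did not overlap, while the summed TIMP level of 913 to 937 RPKM overlapped that of 903 to 944 RPKM. *MMP2* and *MMP14* made up 55.2% and 42.1% of the MMP sum in the controls and 56.4% and 41.4% in 4-OHT ATII CM. *TIMP1* took 60.0% and 60.8% of the TIMP sum, *TIMP2* 20% and 18.8%, and *TIMP3* 19.9% and 20.2%. *MMP2* and *MMP14* were higher and *TIMP2* was lower in every 4-OHT ATII CM library. The lack of overlap in the ratios to *TIMP2* follows from this and is no separate result. All these ratios were built from genes chosen with results in view and are given without a test. They are ratios of RNA, and neither enzyme activity nor complex formation was measured here.

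**Figure D4:**
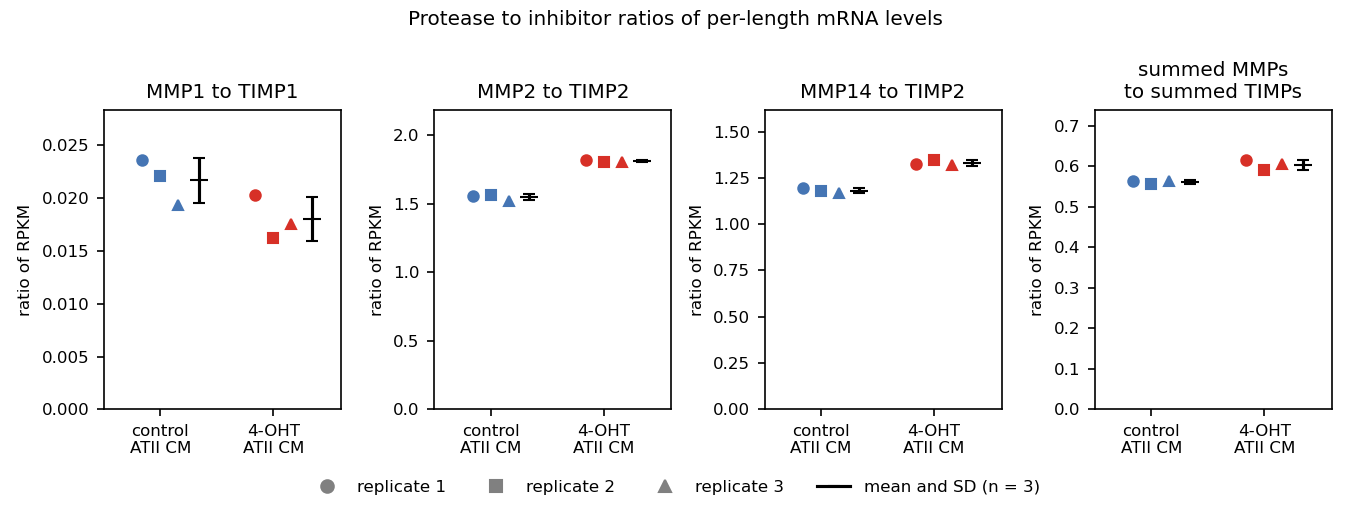
RPKM ratio of protease to inhibitor in each library, for control ATII CM and 4-OHT ATII CM. *MMP2* to *TIMP2*, *MMP14* to *TIMP2* and the sum of the MMPs to the sum of the TIMPs are higher in every 4-OHT ATII CM library than in any control, and *MMP1* to *TIMP1* overlaps. For the ratios to *TIMP2*, this follows from the single genes, which did not overlap either.

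Of the 17 MMP genes outside the 10, 8 reached 10 counts and 3 had no count. None of the 8 was called, and none had an unadjusted p under 0.05 in edgeR. DESeq2 and limma-voom called none either, and the median log2 fold change was -0.0048.

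A list of 22 genes that activate MMPs, restrain them or clear them had 20 tested genes. Of these, 4 rose and 4 fell in 4-OHT ATII CM (40% of those tested, against 5.72% of all genes), with a median log2 fold change of 0.07. The list was chosen with earlier results of these data known, so the shares do not test for enrichment. With edgeR's stricter filter on low counts, 1172 of 14599 genes were called, and 8 of the 20. *A2M*, which encodes α2-macroglobulin, a trap for proteases of every class, rose from 98.7 ± 7.44 to 127 ± 3.36 CPM (SD, n = 3 each, log2 fold change 0.36, adjusted p = 0.000331 in edgeR). *RECK*, which encodes a membrane-anchored inhibitor of MMP2, MMP9 and MMP14, rose from 175 ± 0.835 to 191 ± 3.11 CPM (log2 fold change 0.13, adjusted p = 0.0326 in edgeR). *THBS1*, encoding thrombospondin-1, which binds MMP2 and aids its uptake, rose by 0.14 on the log2 scale (adjusted p = 0.0189 in edgeR), and *MRC2*, encoding the collagen uptake receptor Endo180, by 0.10 (adjusted p = 0.0420 in edgeR). Those that fell included *CLDN1*, which encodes claudin-1, a tight junction protein reported to promote pro-MMP2 activation, from 16.9 ± 0.614 to 11.7 ± 0.399 CPM (log2 fold change -0.53, adjusted p = 0.000387 in edgeR). *PLAUR*, encoding the urokinase receptor, fell by 0.18 on the log2 scale (adjusted p = 0.0355 in edgeR), and *TFPI2*, encoding a matrix-bound inhibitor of plasmin, fell by 0.23 (adjusted p = 0.0185 in edgeR). The list thus held inhibitors that rose and inhibitors that fell. Of the 8 called genes, 3 were called in all 15 alternatives, *A2M* and *CLDN1* among them, whereas the list had 5 calls without control replicate 3, 4 without 4-OHT ATII CM replicate 1, 3 without replicate 2 and 4 without replicate 3. Without control replicate 2 it had 9 calls, though *PLAUR* was then at an adjusted p of 0.0560 in edgeR. Of all genes, edgeR called 4.31%, 8.19% and 3.58% without control replicates 1, 2 and 3, and 4.23%, 2.88% and 3.33% without replicates 1, 2 and 3 of 4-OHT ATII CM. *RECK* and *MRC2* were called in 8 and 7 of 15 alternatives. Their calls were lost without any 1 library other than control replicate 2 (adjusted p up to 0.149 and 0.184). In edgeR, both were also lost with library totals (adjusted p = 0.0560 and 0.0655) and the replicate block (0.0593 and 0.0632). That of *MRC2* was lost with the length trend removed too (0.0551). *PLAUR* lost its call without any 1 library other than control replicate 1 (up to 0.169). *THBS1* lost its call without 4-OHT ATII CM replicate 2 or 3 (up to 0.101), and *TFPI2* without control replicate 1 or 4-OHT ATII CM replicate 1 or 2 (up to 0.102).

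All 25 matrix proteins cleaved by MMPs or joined to their substrates were tested, and 6 rose and 3 fell (36% of those tested, against 5.72% of all genes), with a median log2 fold change of 0.02. This list too was chosen with earlier results of these data known, so the shares do not test for enrichment. Without control replicate 2, 15 of the 25 were called, 7 higher and 8 lower, in a fit that called 8.19% of all genes. *DCN* and *LUM*, which encode the small proteoglycans decorin and lumican that bind collagen fibrils, rose from 3878 ± 5.38 to 4872 ± 139 CPM and from 509.9 ± 11.7 to 624 ± 12 CPM (log2 fold changes 0.33 and 0.29). *COL3A1*, a fibrillar collagen, rose by 0.18, *LAMB1*, a laminin chain of basement membranes, by 0.24, *FBLN1*, encoding fibulin-1, by 0.23 and *ELN*, encoding elastin, by 0.21 on the log2 scale. *LOX*, encoding the enzyme that crosslinks collagen and elastin, fell from 437 ± 12.4 to 388 ± 5.66 CPM (log2 fold change -0.17, adjusted p = 0.00427 in edgeR). *FN1*, encoding fibronectin, had 7503, 5651 and 7274 CPM in the controls and 5538, 5416 and 5440 CPM in 4-OHT ATII CM (log2 fold change -0.32, adjusted p = 0.0107 in edgeR). *HSPG2*, encoding perlecan, had 264, 187 and 259 CPM against 177, 172 and 172 CPM (log2 fold change -0.45, adjusted p = 0.00496 in edgeR). In both of these genes control replicate 2 stood nearer to the 4-OHT ATII CM libraries than to the other controls. *ELN* lost its call in 11 of 15 alternatives, among them each fit without 1 library other than control replicate 2 (adjusted p in edgeR up to 0.221). *FN1* lost it in DESeq2 (adjusted p = 0.0891) and in edgeR without control replicate 3 (0.0542) or 4-OHT ATII CM replicate 2 (0.0641). *DCN*, *LUM* and *COL3A1* are also among the fibroblast markers.

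**Figure D5:**
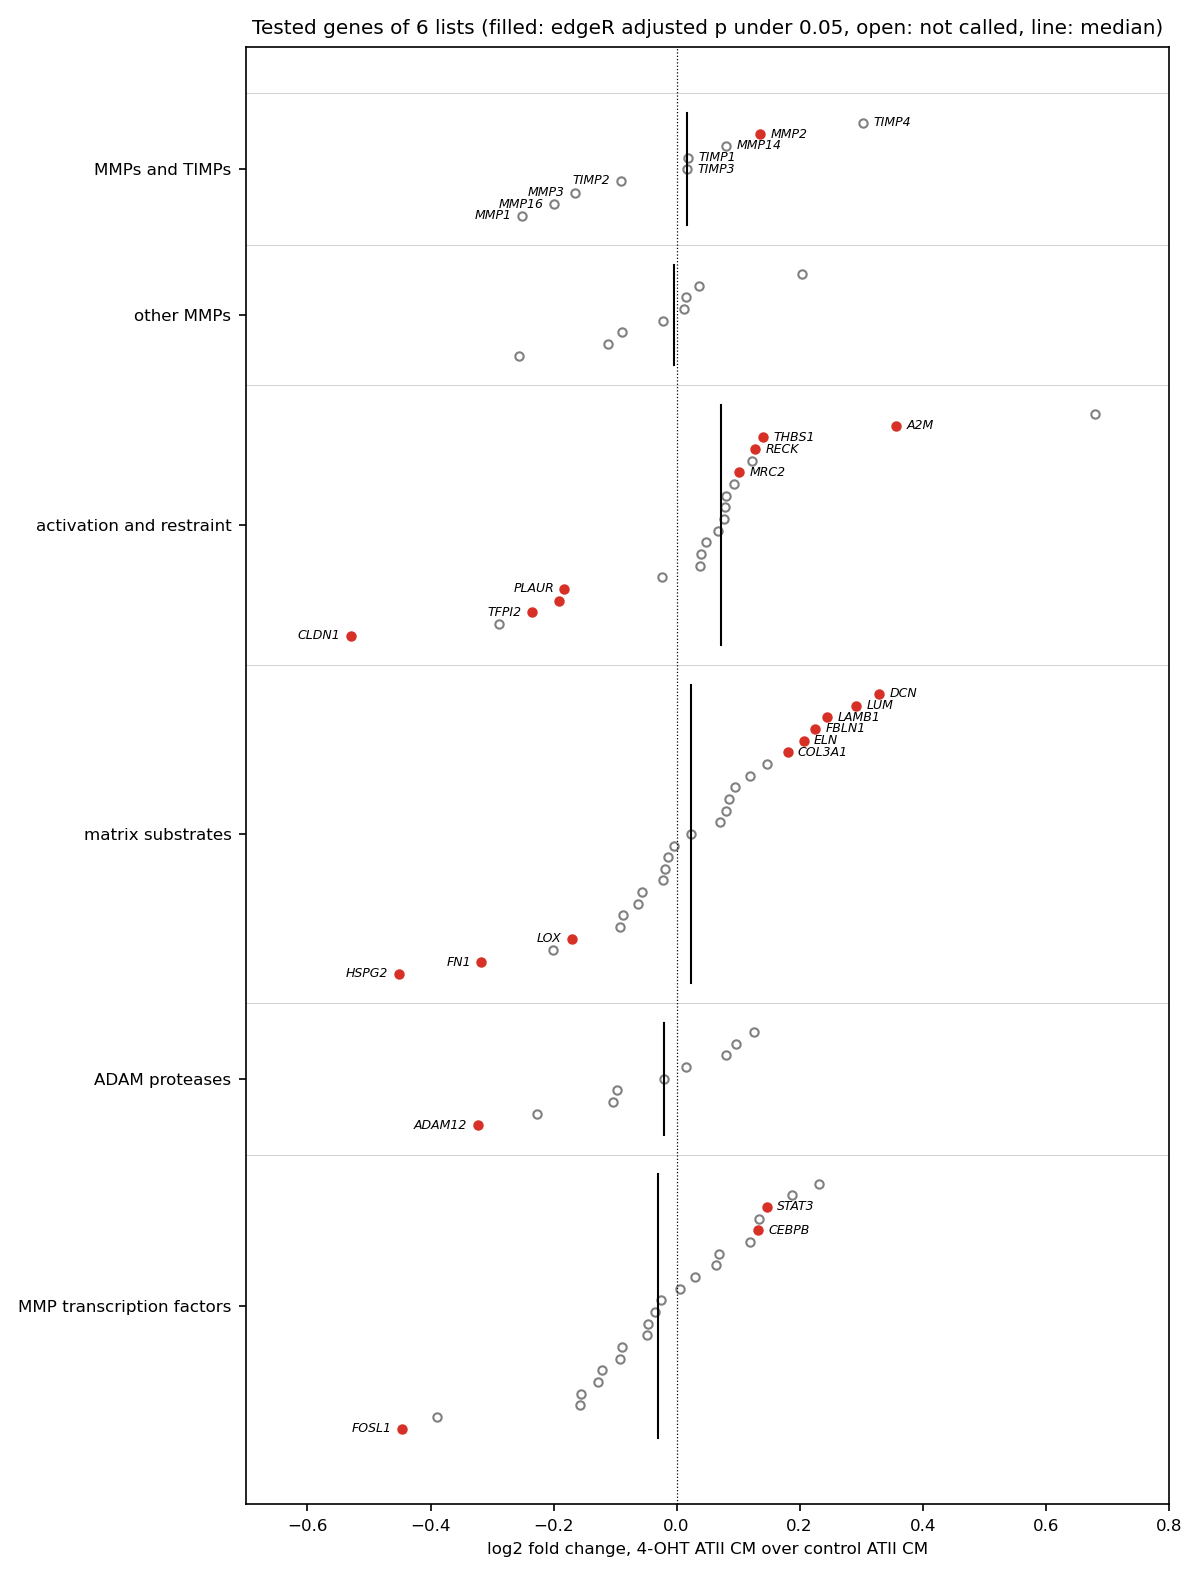
Log2 fold change in 4-OHT ATII CM over control ATII CM for every tested gene of 6 lists, sorted within each list, with filled points for an adjusted p under 0.05 in edgeR and a line at each list's median. Filled points lie on both sides of 0 among the genes of activation and restraint (4 and 4) and the matrix substrates (6 and 3, or 7 and 8 without control replicate 2), while the MMPs and TIMPs have 1, *MMP2*. Names are given for the genes described in the text.

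Of 9 ADAM proteases, the shedding enzymes of which several are inhibited by TIMP3, 1 fell (11.1%, where 5.72% of all genes were called in either direction and 2.76% lower) and none rose. This was *ADAM12*, from 10.7 ± 0.201 to 8.51 ± 0.467 CPM (log2 fold change -0.32, adjusted p = 0.0392 in edgeR). The call was lost without any 1 of the libraries other than control replicate 2 (adjusted p 0.0708 to 0.142). It was also lost in DESeq2 (adjusted p = 0.0982) and in edgeR with the replicate block (0.0668). Without control replicate 2 there were 2 calls in the list, 1 higher and 1 lower, in the fit that called 8.19% of all genes. With 9 genes, a single call is near the share over all genes.

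Of 22 transcription factors known to act on MMP promoters, 2 rose and 1 fell (13.6% of those tested, against 5.72% of all genes), with a median log2 fold change of -0.03. Earlier results of these data were known when this list was chosen as well. *FOSL1*, which encodes the AP-1 subunit Fra-1, had 87.8, 92.9 and 83.5 CPM in the controls and 65.3, 64.3 and 64.1 CPM in 4-OHT ATII CM. The groups lay far apart, with a log2 fold change of -0.45 (SE 0.0428, adjusted p = 2.0e-05 in edgeR), and the call was kept in all 15 alternatives. *STAT3*, the factor of interleukin-6 family signaling, rose from 274 ± 2.63 to 303 ± 6.88 CPM (log2 fold change 0.15, adjusted p = 0.0118 in edgeR), and *CEBPB*, encoding C/EBPβ, from 147 ± 2.25 to 161 ± 3.97 CPM (log2 fold change 0.13, adjusted p = 0.0377 in edgeR). *STAT3* lost its call without control replicate 3 or 4-OHT ATII CM replicate 2 or 3 (adjusted p 0.0590 to 0.0875) and *CEBPB* without any 1 library other than control replicate 2 (0.0637 to 0.182). *CEBPB* also lost it in edgeR with library totals (adjusted p = 0.0570) and with the replicate block (0.0553). The list had 7 calls without control replicate 2, 4 higher and 3 lower, where 8.19% of all genes were called. It had 1 call without control replicate 3 or 4-OHT ATII CM replicate 2 or 3, where 3.58%, 2.88% and 3.33% were called.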

How the data were processed

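Polyadenylated RNA of 6 MRC5 libraries was sequenced. According to the study's methods and the submitters' processing notes, the authors used Trim Galore for trimming, HISAT2 2.1.0 for mapping to GRCh38 and featureCounts 1.6.5 for counting per gene. The deposited values are raw counts per gene, 1 column per library, with the length of each gene's merged exons. The annotation release, the strand setting and the treatment of reads with several matches are not given in the sources used here. The library kit named in the methods does not mark strand by default, so reads of genes that overlap on opposite strands cannot be told apart.

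The table had 58721 lines, and counts of the 45 identifiers listed on both X and Y were added. GENCODE release 44 named 58207 of the 58676 identifiers. Genes with at least 10 counts over 6 libraries (19072) entered edgeR 4.0.16 under R 4.3.3 (TMM factors, quasi-likelihood test, group the sole term, Benjamini-Hochberg adjustment over all genes tested, threshold 0.05). CPM and RPKM use TMM library sizes, and each standard error was taken as the fold change over the square root of F. The common biological coefficient of variation was 4.36%, and replicates differed by more than counting noise (chi-square per degree of freedom 2.04 to 5.56), so none was a repeated deposit. Depth leaves little counting error for genes near 1000 CPM, whereas *MMP3*, *MMP16* and *TIMP4* rest on 30 to 122 counts per library. Alternatives were DESeq2 1.42.0, limma-voom (limma 3.58.1), RLE and upper-quartile factors, library totals, 2 other filters on low counts, a replicate block, removal of a per-library trend on gene length (splines of 5 degrees of freedom) and each library left out in turn. For the ratios, leaving out each library was added after the data had been seen. The fits were tested on simulated counts with known changes. Each of these was larger than the change of any measured MMP or TIMP gene of the 10, and smaller ones were not simulated. Transcripts were aligned to the 261 alternate contigs with minimap2 2.31 (Python 3.11.15).

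The 10 genes and the lists (other MMPs, activation and restraint, matrix substrates, ADAM proteases, transcription factors and markers of 3 kinds) were chosen with earlier results of these data known. Named were the 10 genes, the called genes of each list other than the markers (at most 6 per direction, by p), genes whose exons overlap the 10 (by symbol, where they have one), the 3 genes closest in pattern to the called gene with the largest change, and the 2 most abundant genes of each marker list. Genes around *MMP11* and markers without counts were named after their values were seen. The result of 1 called gene of the activation and restraint list is counted but not reported here.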

Additional observations from a re-analysis of the deposited data

How the results depend on the processing

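Over 15 alternatives, the log2 fold changes of 7 of the 9 measured genes kept their direction, and *TIMP1* and *TIMP3*, which were not called, turned to -0.0087 and -0.0048 in 1 alternative each. *MMP2* stayed between 0.12 and 0.14 when each library was left out in turn, and *TIMP1* and *TIMP3* ranged up to 0.047 and 0.029. The number of the 10 genes called higher was 0 or 1 with a library left out, and the number called lower was 0 or 1 too. It was 1 with DESeq2, limma-voom, the filter of at least 1 count and the length trend removed. With a library left out, calls ranged from 3 to 9 among the activation and restraint genes, 7 to 15 among the matrix substrates, 0 to 2 among the ADAM proteases and 1 to 7 among the transcription factors. The filter of at least 1 count gave 14 matrix substrates, 2 ADAM proteases and 8 transcription factors, limma-voom gave 5 transcription factors, and DESeq2 and the replicate block each gave 0 ADAM proteases. The cause of these shifts was not tested.

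Over all genes, 1090 were called with all libraries, 533 when the second library of 4-OHT ATII CM was left out, 1530 when control replicate 2 was, and 1601 with the filter of at least 1 count, where 27749 genes were tested. No pairing by replicate number was seen: same-numbered libraries correlated at -0.0145, -0.104 and -0.0931 in their deviations from the group means, and no library of 4-OHT ATII CM correlated best with its own number. With so few libraries per group, this check cannot exclude pairing. The replicate block gave 985 calls over all genes and *MMP2* at an adjusted p of 0.0073 in edgeR. Where 1 library was left out, its group kept 2, whose spread is shared with the other group in the fit. Counts limit *MMP3*, *MMP16* and *TIMP4*, whose SEs of 0.124 to 0.201 on the log2 scale exceed the changes seen for *MMP14* and *TIMP2*.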

Other observations

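Among the MMPs outside the 10 genes, the most abundant were *MMP19* and *MMP17*, which were named here after their values were seen. *MMP19*, which encodes a secreted enzyme of basement membrane turnover, was measured at 39.5 ± 0.755 CPM in the controls against 38.9 ± 1.82 CPM with 4-OHT ATII CM (SD, n = 3 per group). *MMP17*, which encodes the membrane-anchored MT4-MMP, had 18.9 ± 1.42 and 18.9 ± 1.56 CPM. Their log2 fold changes were -0.02 (SE 0.0485) and 0.01 (SE 0.0784), and both overlapped between the groups. Neither sign was stable: *MMP19* went from -0.04 without 4-OHT ATII CM replicate 1 or 2 to 0.02 without replicate 3, and *MMP17* from -0.05 without control replicate 1 to 0.08 without 4-OHT ATII CM replicate 1, with 0.06 without control replicate 2 and values below 0 without 4-OHT ATII CM replicate 2 or 3. *MMP9*, encoding gelatinase B, the other gelatinase beside *MMP2*, and *MMP13*, encoding collagenase-3, were without a count in any of the 6 libraries.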
